A study of Mus musculus with 54 samples.

Results

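The comparison set liver transcriptomes of mice given 15 mg/kg bw/d of DINP directly against those of mice given 150 mg/kg bw/d, without passing through the control group. Its members were all entries of the expression table with a mean value of at least 1 over the 27 libraries of these groups, which were 11378 of the 20162 entries. The lowest mean kept was 1 and the highest mean left out was 0.999, and 1559 of the 8784 entries left out were at 0 in all 27 libraries. The mice were male C57BL/6J wild types that were switched to a high-fat diet (HFD) at 8 weeks of age and fed it ad libitum. Di-isononyl phthalate (DINP), a plasticizer of polyvinyl chloride, was eaten in gelatin pellets once a day for 20 weeks. The series held 54 libraries from medial liver lobe: 13 at 15 mg/kg bw/d, 14 at 150 mg/kg bw/d, and, used here only to show on which side they lay, 14 from control mice on the same diet and 13 at 1.5 mg/kg bw/d. All groups shared the diet, the strain and the sex, so that no group shows the effect of DINP on a normal diet or in females. The study set 15 mg/kg bw/d at the level without observed adverse effect and took 150 mg/kg bw/d as a dose for mechanism.

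Peroxisome proliferator-activated receptor alpha (PPARα, gene Ppara) is the nuclear receptor by which hepatocytes sense fatty acids, and phthalate monoesters and fibrate drugs also activate it. It pairs with a retinoid X receptor and, in rodent liver, raises the genes of fatty acid omega-hydroxylation, peroxisomal and mitochondrial beta-oxidation, ketone body formation and lipid droplet turnover. Other genes of the hepatocyte follow feeding, insulin, the circadian clock or the position along the lobule from portal to central vein.

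Values are TPM (transcript abundances scaled to a fixed sum) that, as their steps show, were rounded and scaled between samples by the authors, and log2 fold changes (log2FC) are the mean of log2(value + 1) at 150 minus that at 15 mg/kg bw/d. Calls required a log2FC beyond 0.5 and, from limma's moderated test adjusted by Benjamini-Hochberg over the 11378 entries, an adjusted p under 0.05. Of the entries tested, 341 (3.00%) were called higher and 335 (2.94%) were called lower at 150 mg/kg bw/d. With the values rescaled to the same sum in every library, 264 were higher and 421 lower. The median of the absolute log2FC was 0.63 among the called genes in each direction, and 35 of the genes called higher and 26 of those called lower were beyond 1. The values of the 13 and 14 mice did not overlap at all for 13 entries (0.114% of those tested).

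The libraries were not alike within the group at 15 mg/kg bw/d. On the first principal component of the 500 most variable genes, which held 19.7% of their variance, 6 of the 13 libraries at 15 mg/kg bw/d (replicates 4 to 9) and 1 of the 14 at 150 mg/kg bw/d (replicate 10) stood apart, with scores from -30.4 to -12.1. The other 20 libraries lay between -4.6 and 16.6. The mean score was -6.13 ± 15.7 (SD, n = 13) at 15 and 5.69 ± 7.14 (SD, n = 14) at 150 mg/kg bw/d, and 20.6% of the variance of the scores lay between the doses (2-sided permutation test with 100000 resamples, p = 0.0179). The test included the 7 libraries that stood apart, 6 of them at 15 mg/kg bw/d, and was not repeated without them. Scores of the other libraries overlapped, at -4.6 to 14.8 at 15 and 0.525 to 16.6 at 150 mg/kg bw/d. The 7 libraries had more RNA of cytosolic ribosomal proteins: the mean log2(value + 1) of the 85 genes tested was between 7.34 and 7.75 in them, and between 6.76 and 7.19 in the other 20. Mitochondrial ribosomal RNA took 8.58 to 11.3% of all values in these 6 libraries at 15 mg/kg bw/d, 9.68% in the library at 150 mg/kg bw/d, 11.7 to 15% in the other 7 at 15 and 10.4 to 16.5% in the other 13 at 150 mg/kg bw/d. In the other groups, 1 of 14 control libraries and none of the 13 at 1.5 mg/kg bw/d had a ribosomal protein mean as high as the lowest of the 7. The labels name no batch, and no cause of the difference was tested.

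**Figure D1:**
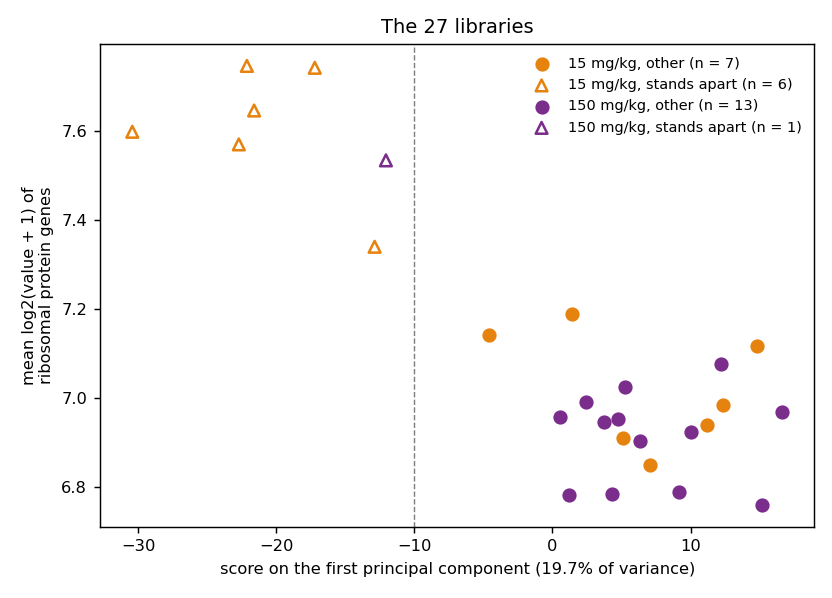
Score on the first principal component (x axis, 500 genes) against the mean log2(value + 1) of the 85 cytosolic ribosomal protein genes (y axis) for the 27 libraries, orange for 15 and purple for 150 mg/kg bw/d. Open triangles left of the dashed line at -10 are the 7 libraries that stood apart, and all of them lie above the other 20 on the y axis.

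Without the 7 libraries, 7 mice at 15 and 13 at 150 mg/kg bw/d were compared, and 174 genes (1.53%) were higher and 148 (1.30%) lower. Of the 341 genes called higher with all 27 libraries, 105 were called again, and so were 80 of the 335 called lower. No gene was called in the opposite direction, while 69 higher and 68 lower genes were called only without the 7 libraries. With fewer mice at 15 mg/kg bw/d, a call can also be lost while its log2FC hardly changes. With the ribosomal protein mean of each library as a covariate, 121 were higher and 100 lower. The calls made in all 3 fits were 71 higher and 49 lower. These fits share mice and are not independent. The covariate also differed with dose, with values of 6.85 to 7.75 at 15 and 6.76 to 7.53 at 150 mg/kg bw/d. It can therefore take out part of the difference between the doses. This choice of libraries and the covariate were made after the data were seen, and genes are described below with both values where they differ.

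**Figure D2:**
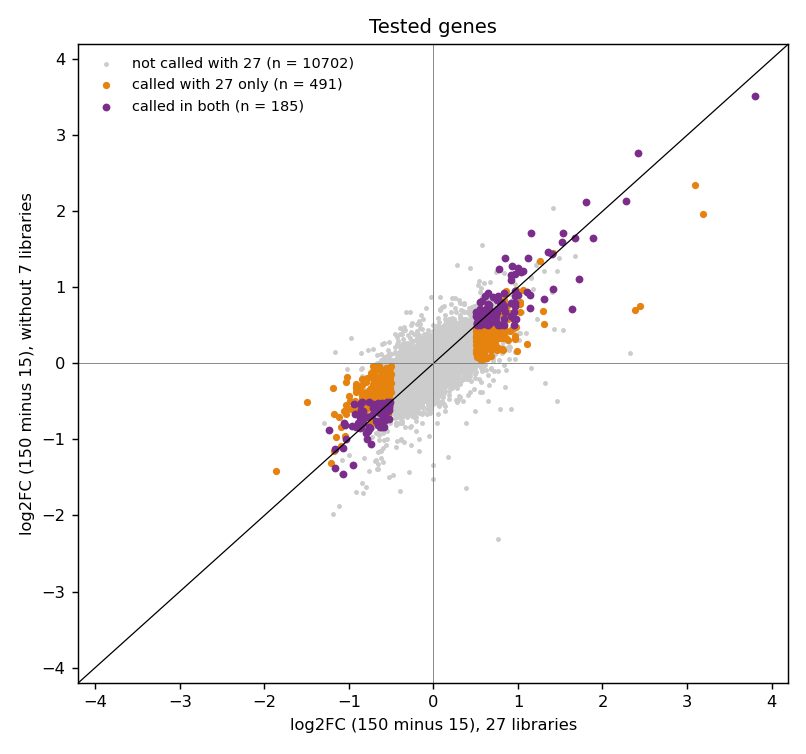
log2FC (150 minus 15 mg/kg bw/d) of the 11378 entries with all 27 libraries (x axis) and without the 7 that stood apart (y axis), with the line of equality. Purple marks the genes called in both fits (105 higher, 80 lower) and orange those called with 27 libraries only.

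The genes of fatty acid omega-hydroxylation had the highest median log2FC of all 54 gene lists. The 22 mitochondrial tRNAs described below, which were not among these lists, had a higher median of 0.91. Of 10 tested members of the Cyp4a list, 5 were called higher at 150 mg/kg bw/d and none lower, with a median log2FC of 0.84, against a median of -0.006 over all entries tested. The same 5 were called without the 7 libraries and with the covariate. Cyp4a14, which oxidises the far end of medium and long fatty acids, lay at 83.3, 272 and 430 (lowest, median and highest mouse) at 15 mg/kg bw/d and at 864, 1111 and 1810 at 150 mg/kg bw/d. Every mouse at the higher dose was above every mouse at the lower one, a change of 4.87-fold (log2FC 2.28, SE 0.18, adjusted p = 2.55e-09). The control mice, with a median of 345 and a highest value of 583, were also all below the lowest mouse at 150 mg/kg bw/d.

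Cyp4a10 lay at 54.1, 128 and 188 at 15 and at 204, 381 and 705 at 150 mg/kg bw/d (log2FC 1.67, SE 0.19, adjusted p = 2.39e-06). Cyp4a31 lay at 0.951, 2.21 and 5.48 and at 5.91, 11.8 and 20.9 (log2FC 1.81, SE 0.19, adjusted p = 8.67e-07). Neither gene's groups overlapped. Their control medians, 126 and 2.84, were close to those at 15 mg/kg bw/d. The 3 genes lie side by side on chromosome 4 of GRCm38, Cyp4a14 at chr4:115486200-115496142, Cyp4a10 at chr4:115518264-115533649 and Cyp4a31 at chr4:115563649-115579015. Cyp4a12a, the form of the male liver, had medians of 38.4 and 139 (log2FC 1.35, adjusted p = 0.000232), and 10 of the 14 mice at the higher dose were above all at the lower one. Its near copy Cyp4a12b had medians of 3.81 and 14.7 (log2FC 1.89, adjusted p = 0.00152). Members of this cluster resemble each other in sequence, and how the counting divided reads between them was not examined.

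Of the acyl-CoA thioesterases, which cut activated fatty acids from coenzyme A, 2 of 12 were called higher and none lower, and the list's median log2FC was 0.19. These were the neighbours Acot2 (chr12:83987861-83993873), a mitochondrial enzyme, and Acot1 (chr12:84009490-84018371), its cytosolic relative. Acot2 lay at 2.04, 10.1 and 23 at 15 and at 12.8, 27.2 and 67.3 at 150 mg/kg bw/d (log2FC 1.53, SE 0.26, adjusted p = 0.000311). Acot1 had medians of 14.6 and 38.5 (log2FC 1.12, adjusted p = 0.000311), with 11 of 14 mice above the highest at 15 mg/kg bw/d. Both were called in all 3 fits, and as near copies they may share reads.

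Among 26 genes of peroxisomal beta-oxidation, 3 were called higher and 1 lower, with 20 of the 26 log2FC above 0 and a median of 0.22. Ehhadh, the peroxisomal bifunctional enzyme (chr16:21761287-21787807), lay at 11.1, 15.1 and 21.9 at 15 and at 33, 48.9 and 73.1 at 150 mg/kg bw/d. The groups were wholly separate (log2FC 1.52, SE 0.12, adjusted p = 2.55e-09), and the medians of control (14.2) and 1.5 mg/kg bw/d (15.2) lay close to that of the lower dose. Acaa1b, a peroxisomal thiolase, had medians of 896 and 1300 (log2FC 0.58, adjusted p = 0.0021). Acsl1, which activates long fatty acids, had medians of 255 and 347 (log2FC 0.61, adjusted p = 0.000902), and 12 of 14 mice at 150 mg/kg bw/d exceeded all at 15. Nudt7, a peroxisomal hydrolase of coenzyme A, fell, with medians of 284 and 190 (log2FC -0.73, adjusted p = 0.00324), a call that was lost with the covariate (log2FC -0.58, adjusted p = 0.0737).

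Of these 26 genes, 7 were called higher without the 7 libraries. Ech1, an isomerase, was among the added calls and is named for that reason. It lay at 274, 390 and 716 at 15 and at 469, 546 and 868 at 150 mg/kg bw/d, and its log2FC was 0.4 with all libraries (adjusted p = 0.0263) and 0.67 without the 7 (adjusted p = 1.89e-05). Of 22 genes of peroxisome assembly, 2 were called higher and 1 lower. Pex11a, which divides peroxisomes, lay at 143, 331 and 706 at 15 and at 460, 589 and 910 at 150 mg/kg bw/d (log2FC 0.93, SE 0.18, adjusted p = 0.000912). Its log2FC was 1.28 without the 7 libraries (adjusted p = 0.000145).

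Of 26 genes of mitochondrial beta-oxidation, 6 were called higher and 1 lower, with a median log2FC of 0.13. Acadm, the medium-chain acyl-CoA dehydrogenase, lay at 226, 418 and 721 at 15 and at 503, 768 and 947 at 150 mg/kg bw/d (log2FC 0.84, SE 0.15, adjusted p = 0.000471). It was called again without the 7 libraries (log2FC 0.51, adjusted p = 0.00493) and not with the covariate (log2FC 0.46). Only Acadm and Acsl1 of the 6 were called without the 7 libraries. The 9 tested genes of carnitine synthesis and shuttle had no call with all libraries, and 8 of their log2FC were above 0. The carnitine transporter Slc22a5 had medians of 4.09 and 6.02 (log2FC 0.46, adjusted p = 0.0111) and the peroxisomal carnitine transferase Crot of 98.2 and 136 (log2FC 0.44, adjusted p = 0.0163), both under the fold threshold. Of the 9, 4 passed it without the 7 libraries, Slc22a5 with 0.73 (adjusted p = 0.000288) and Crot with 0.56 (adjusted p = 0.0303). The lists share members, so their counts are not separate. Crot and Crat, both among these 4, also count among the peroxisomal genes called higher without the 7 libraries. Acsl1 counts in both beta-oxidation lists.

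For ketone bodies and the pyruvate dehydrogenase switch, 4 of 14 genes were called higher and none lower (median log2FC 0.32). Pdp2, the phosphatase that turns pyruvate dehydrogenase on, lay at 8.86, 13.5 and 17.4 at 15 and at 15.8, 21.3 and 28.8 at 150 mg/kg bw/d (log2FC 0.68, SE 0.1, adjusted p = 6.95e-05). Pdk4, the kinase that turns it off, was low throughout: 7 of 13 mice at 15 and 2 of 14 at 150 mg/kg bw/d were at 0, and the highest values were 2.19 and 5.17. Its means were 0.611 and 2.29, so that it passed the minimum mean only through the higher dose, and it is given as values although it is among the 4. Pdp2 was called in all 3 fits. Bdh1, which makes beta-hydroxybutyrate, and the monocarboxylate carrier Slc16a1 rose by log2FC of 0.61 and 0.62 (adjusted p = 0.000434 and 0.00322), and by 0.4 and 0.38, below the threshold, without the 7 libraries.

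Of 20 lipid droplet genes, 5 were called higher and 1 lower with all libraries, the same numbers without the 7, and 3 and 1 with the covariate. G0s2, an inhibitor of the main triglyceride lipase, lay at 17.3, 145 and 380 at 15 and at 185, 291 and 478 at 150 mg/kg bw/d (log2FC 1.15, SE 0.3, adjusted p = 0.00993), and its log2FC was 1.72 without the 7 libraries. The droplet coat proteins Plin2 and Plin5 rose from medians of 280 to 420 and of 12.6 to 20 (log2FC 0.57 and 0.59, adjusted p = 0.00909 and 0.000608), and were called without the 7 libraries but not with the covariate (log2FC 0.5 and 0.48, adjusted p = 0.092 and 0.0203). Hsd17b13, a droplet dehydrogenase of periportal hepatocytes, fell from a median of 287 to 190 (log2FC -0.71, adjusted p = 0.000433), and was called in all 3 fits. Of 22 genes of fatty acid uptake and triglyceride synthesis, 2 were higher and 2 lower. Mogat1, a monoacylglycerol acyltransferase, had medians of 11.2 and 22.3 (log2FC 1.06, adjusted p = 0.00561), and Lpin1, a phosphatidate phosphatase, of 22.9 and 14 (log2FC -0.77, adjusted p = 0.00336). Both held in all 3 fits.

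Other genes that rose belong to transport and to regulation of fuel use. Angptl4, a secreted inhibitor of lipoprotein lipase, lay at 4.42, 9.73 and 17.9 at 15 and at 8.86, 18.5 and 28.6 at 150 mg/kg bw/d (log2FC 0.92, SE 0.17, adjusted p = 0.000834). Txnip, an inhibitor of thioredoxin and of glucose uptake, had medians of 55.4 and 109 (log2FC 1, adjusted p = 0.00238). The Txnip medians of control and 1.5 mg/kg bw/d, 55.2 and 56.3, lay close to that at 15 mg/kg bw/d. Of 38 Slc25 carriers of the inner mitochondrial membrane, 5 were called higher and 1 lower. The glutamate carrier Slc25a22 lay at 36.1, 53.1 and 67.4 and at 59.5, 83.6 and 118 (log2FC 0.68, adjusted p = 0.000161), here with the control median of 75.6 nearer the higher dose. Angptl4, Txnip and Slc25a22 were called in all 3 fits.

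Cfd encodes complement factor D, an adipocyte product that starts the alternative complement pathway. It lay at 0, 3.81 and 25.1 at 15 and at 5.1, 23.1 and 52.7 at 150 mg/kg bw/d, and 3 of the 13 mice at the lower dose were at 0 (log2FC 2.42, SE 0.46, adjusted p = 0.000896). The groups overlapped, with 6 of 14 mice above the highest at 15 mg/kg bw/d, and the log2FC was 2.76 without the 7 libraries. The control and 1.5 mg/kg bw/d medians were 4.99 and 2.94. The adipocyte markers Adipoq, Plin1, Lep and Retn were at 0 in most of the 27 libraries. The summed level of the 7 adipocyte markers, Cfd included, was 8.16 to 99.3 at 15 and 21.2 to 91.7 at 150 mg/kg bw/d. Of 32 complement genes, Cfd was the only one called higher, and Cfhr2 was called lower (log2FC -0.67, adjusted p = 0.00333), but not without the 7 libraries (log2FC -0.3). These counts are near the shares of 3.00% higher and 2.94% lower over all entries.

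Among 32 nuclear receptors and partners, none was called higher and 1 lower, where 3.00% were higher and 2.94% lower over all entries. Ppara itself lay at 93.9, 135 and 242 at 15 and at 134, 196 and 264 at 150 mg/kg bw/d. The difference, with a log2FC of 0.38, was under the fold threshold (SE 0.13, adjusted p = 0.0389). Without the 7 libraries it was 0.29 (adjusted p = 0.272). Rxra, the partner of PPARα, fell from a median of 34.1 to 23.5 (log2FC -0.53, adjusted p = 6.38e-05), with 12 of 14 mice at 150 below all at 15 mg/kg bw/d. Without the 7 libraries its log2FC of -0.48 was just under the threshold (adjusted p = 0.0017), and the control median of 25.8 lay near the higher dose. Cyp3a11, the main target of the xenobiotic receptor PXR, had medians of 373 and 362 with overlapping ranges (log2FC -0.06, SE 0.22, adjusted p = 0.893), and its log2FC turned to 0.4 without the 7 libraries (adjusted p = 0.051). Rraga, a GTPase of the lysosomal mTORC1 machinery, and Aldh9a1, an enzyme of carnitine synthesis, had log2FC of 0.24 and 0 (adjusted p = 0.204 and 0.982). Of the 39 genes of that machinery 1 was higher and 1 lower, near the shares over all entries. The scaffold Lamtor1 had medians of 88.5 and 136 (log2FC 0.57, adjusted p = 4.17e-05), and its control median was 130.

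**Figure D3:**
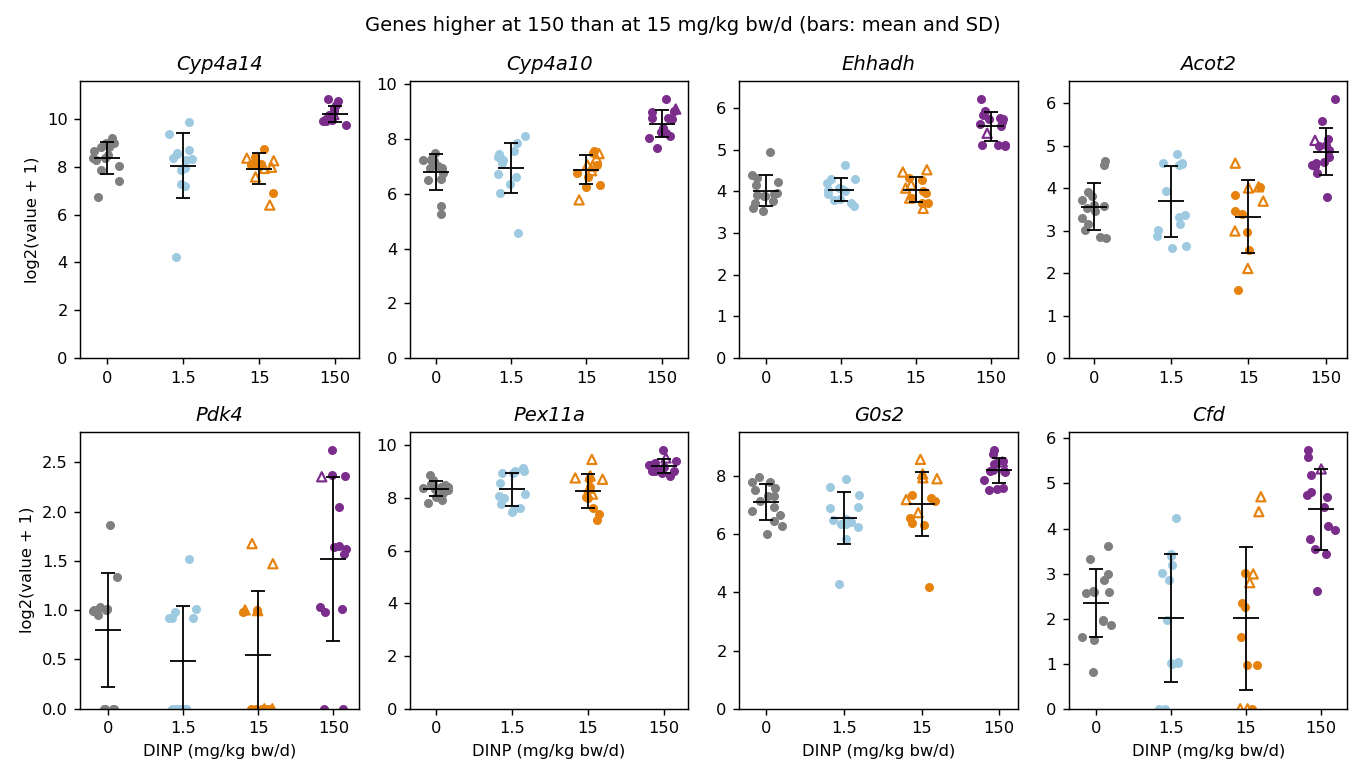
log2(value + 1) of 8 genes in each mouse of the 4 groups (0 is control), with mean and SD as bars and open triangles for the 7 libraries that stood apart. For Cyp4a14, Cyp4a10 and Ehhadh all 14 mice at 150 mg/kg bw/d lie above all 13 at 15 mg/kg bw/d, and the control mice lie with the lower dose.

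Of the 13 entries whose groups did not overlap, 9 passed the fold threshold. Among these, Cyp4a14, Cyp4a10, Cyp4a31, Ehhadh, Bace1, Iba57 and Pip5k1a were higher, and Sec62 was lower, at 150 mg/kg bw/d. Bace1, the beta-secretase, had narrow groups of 4.76 to 7.98 and 8.21 to 12.8 (log2FC 0.66, SE 0.08, adjusted p = 2.84e-06), with a control median of 7.48. Iba57, an assembly factor of mitochondrial iron-sulfur clusters, lay at 4.42 to 13.1 and at 14.8 to 25.2 (log2FC 0.96, adjusted p = 1.98e-05), and the control median of 15 was nearer the higher dose. Pip5k1a, a phosphoinositide kinase, reached 23.5 at most at 15 and at least 23.6 at 150 mg/kg bw/d (log2FC 0.58, SE 0.1, adjusted p = 0.000471), and its log2FC of 0.48 without the 7 libraries was below the threshold. Sec62, a part of the channel that takes proteins into the endoplasmic reticulum, lay at 75.3, 104 and 151 at 15 and at 52.8, 63.9 and 74.3 at 150 mg/kg bw/d (log2FC -0.7, SE 0.09, adjusted p = 2.51e-05). Its control values, 57.3 to 72.3, were all below the lowest mouse at 15 mg/kg bw/d. The 4 others, named after their values were seen, changed by less: Keap1, Nfatc1 and Acaa2 had log2FC of 0.43, 0.41 and 0.36, and Fn1 of -0.34.

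RefSeq promoter sequences for GRCm38.p6 were on hand for 4 of these 9 genes. The 250 bases before the start site are printed to show what precedes genes whose groups were wholly separate. Capitals mark the E-box CACGTG, the site of clock and related factors, which reads the same on both strands.
Ehhadh, chr16:21787835-21788084, minus strand: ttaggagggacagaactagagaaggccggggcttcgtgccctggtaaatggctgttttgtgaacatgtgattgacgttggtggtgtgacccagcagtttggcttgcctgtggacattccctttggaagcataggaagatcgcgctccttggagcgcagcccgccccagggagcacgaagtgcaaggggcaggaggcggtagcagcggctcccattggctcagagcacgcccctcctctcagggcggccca
Iba57, chr11:59163746-59163995, minus strand: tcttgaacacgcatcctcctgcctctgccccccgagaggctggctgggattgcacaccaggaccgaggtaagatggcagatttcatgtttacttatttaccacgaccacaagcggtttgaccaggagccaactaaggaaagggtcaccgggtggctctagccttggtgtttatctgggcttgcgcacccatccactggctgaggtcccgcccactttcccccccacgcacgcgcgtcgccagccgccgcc
Pip5k1a, chr3:95106931-95107180, minus strand: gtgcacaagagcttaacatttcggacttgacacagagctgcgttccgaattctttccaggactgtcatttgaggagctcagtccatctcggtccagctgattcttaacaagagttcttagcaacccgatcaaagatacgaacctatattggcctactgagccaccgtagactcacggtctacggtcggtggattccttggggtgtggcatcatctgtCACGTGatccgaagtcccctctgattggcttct
Sec62, chr3:30792626-30792875, plus strand: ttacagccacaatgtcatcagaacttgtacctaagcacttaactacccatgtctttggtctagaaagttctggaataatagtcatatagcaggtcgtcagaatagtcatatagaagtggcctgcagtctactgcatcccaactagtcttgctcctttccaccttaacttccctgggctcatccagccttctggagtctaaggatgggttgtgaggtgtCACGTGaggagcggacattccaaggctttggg
The E-box lay 33 bases before the start site of Pip5k1a, which was higher, and 32 bases before that of Sec62, which was lower. In windows of 300 bases (250 before and 50 after the start), it was found for 14.3% of 231 genes called higher, 11% of 246 called lower and 11.9% of the 8347 tested genes with a promoter on hand. The receptor hexamer AGGTCA, on either strand, was found for 18.2%, 17.1% and 15.8%. Its direct repeat with a spacer of 1 base, AGGTCANAGGTCA, the classical element of PPARα, was found in none of the 231, 1 of the 246 and 4 of the 8347. These are counts of letters in short windows and say nothing about binding.

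Of 32 genes of glucose metabolism, 5 were called lower at 150 mg/kg bw/d and 1 (Txnip) higher, and 24 of the 32 log2FC were below 0 (median -0.22). Without the 7 libraries 3 were lower and the median was -0.1. Gapdh, a glycolytic dehydrogenase, had medians of 70.4 and 36.8 (log2FC -0.94, adjusted p = 0.000674) and a log2FC of -0.53 without the 7 libraries. Fbp1, an enzyme of gluconeogenesis, had medians of 602 and 382 (log2FC -0.59, adjusted p = 0.00058) and was not called without the 7 libraries (log2FC -0.34).

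Of 20 genes of de novo lipogenesis, 3 were called lower and 1 higher, and none was called lower without the 7 libraries. Elovl6, which lengthens palmitate, lay at 51, 79.4 and 211 at 15 and at 13.9, 29.4 and 116 at 150 mg/kg bw/d (log2FC -1.09, SE 0.28, adjusted p = 0.00986). Its log2FC was -1.08 without the 7 libraries, where it was not called (adjusted p = 0.0727). Thrsp, a regulator of lipogenesis, was scattered, at 231, 493 and 868 and at 19.2, 169 and 698 (log2FC -1.21, SE 0.39, adjusted p = 0.0361). Its call was lost when any 1 of 10 libraries was left out (15 mg/kg bw/d replicates 1, 5, 6, 8 and 9, and 150 mg/kg bw/d replicates 1, 2, 5, 9 and 13), with an adjusted p of at most 0.0598, and without the 7 libraries together (log2FC -1.31, adjusted p = 0.124). The gene called higher was Elovl3, an elongase of very long chains that is also a male-type gene of the growth hormone axis, with medians of 29.6 and 80.5 (log2FC 1.31, adjusted p = 0.00158). It was called without the 7 libraries (log2FC 0.85) and not with the covariate (log2FC 0.7, adjusted p = 0.09).

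Genes of the periportal zone, the hepatocytes nearest the portal vein, were on the lower side: 5 of 24 were called lower and none higher, 21 of the 24 log2FC were below 0, and the median was -0.22. Of 24 pericentral genes none was called, and the median log2FC was 0.03. Ass1 and Asl, successive enzymes of the urea cycle, had medians of 428 and 285 (log2FC -0.62, adjusted p = 0.0103) and of 266 and 178 (log2FC -0.61, adjusted p = 0.000995). Their control medians, 297 and 220, lay between those of the doses. Pigr, the carrier of immunoglobulin into bile, had a lowest value of 63.8 and a median of 208 at 15 mg/kg bw/d, and values of 96.3 to 151 at 150 mg/kg bw/d (log2FC -0.63, SE 0.16, adjusted p = 0.00999). Ass1, Asl, Pigr and Hsd17b13 were called lower in all 3 fits, and the list's median was -0.28 without the 7 libraries. The fifth, Apoa4, a lipoprotein component, lay at 79.6, 206 and 990 and at 27.2, 109 and 473 (log2FC -1.18, SE 0.39, adjusted p = 0.0407). Its log2FC was -0.67 without the 7 libraries (adjusted p = 0.393), and leaving out 1 library ended its call for replicates 5, 6, 7 and 9 at 15 and replicates 2, 3, 4, 6, 7, 13 and 14 at 150 mg/kg bw/d (adjusted p up to 0.0787).

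Of 55 acute-phase and coagulation genes, 5 were called lower and none higher, with a median log2FC of -0.05. Hamp encodes hepcidin, the hormone that lowers iron uptake. It lay at 739, 3152 and 6587 at 15 and at 424, 1464 and 2356 at 150 mg/kg bw/d (log2FC -1.16, SE 0.28, adjusted p = 0.00538), with a control median of 1984. Itih4, a plasma protein of the acute phase, had medians of 450 and 279 (log2FC -0.66, adjusted p = 3.46e-05), and 12 of 14 mice were below all at 15 mg/kg bw/d. Orm2, an acid glycoprotein, had medians of 14.2 and 7.1 (log2FC -1.03, adjusted p = 0.0218) and was not called without the 7 libraries (log2FC -0.55, adjusted p = 0.259). Serpina12, the secreted serpin vaspin, lay at 10.7, 16.3 and 34.1 and at 2.14, 7.79 and 20.7 (log2FC -1.16, SE 0.23, adjusted p = 0.00139). Its control median was 20.5 and that at 1.5 mg/kg bw/d 24.1, both above the medians of the higher doses. Hamp, Itih4 and Serpina12 were called in all 3 fits.

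Of 28 genes of the clock and its PAR bZIP outputs, 7 were called lower at 150 mg/kg bw/d and none higher, with 19 of 28 below 0 (median log2FC -0.17). Per3, a period gene, lay at 3.54, 7.96 and 11.7 and at 1.98, 3.13 and 7.24 (log2FC -0.8, SE 0.18, adjusted p = 0.00291), and 9 of 14 mice were below all at 15 mg/kg bw/d. Usp2, a deubiquitinase with a daily rhythm, had medians of 51.2 and 28.9 (log2FC -0.79, adjusted p = 0.016). Rgs16, a rhythmic regulator of G protein signalling, had medians of 38.9 and 16.4 (log2FC -1.07, SE 0.35, adjusted p = 0.0361). Its call was lost without any 1 of 13 libraries (15 mg/kg bw/d replicates 1, 2, 5, 6, 9, 12 and 13, and 150 mg/kg bw/d replicates 1, 3, 4, 7, 9 and 13; adjusted p up to 0.0638). Per3, Usp2 and Rgs16 were called without the 7 libraries (log2FC -0.92, -0.99 and -1.46), and of these only Per3 with the covariate. Wee1, a kinase of the cell cycle driven by the clock, had medians of 7.12 and 3.51 (log2FC -1.04, adjusted p = 0.00986) and was not called without the 7 libraries (log2FC -0.63, adjusted p = 0.153). No hour of death is given for single mice in the sources used here.

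Xenobiotic and bile acid genes gave a mixed picture. Of 45 phase II enzymes, 5 were called lower and none higher, and without the 7 libraries 3 were lower and 3 higher. Sult1a1, a phenol sulfotransferase, lay at 96.2, 114 and 205 and at 54.3, 71.3 and 108 (log2FC -0.79, adjusted p = 0.000207), with a control median of 76.4. Of 35 genes of P450 families 1 to 3, 3 were lower and 1 higher. Cyp2a12 had medians of 73.5 and 49.7 (log2FC -0.65, adjusted p = 0.00114), and Cyp2a5 of 587 and 351 (log2FC -0.74, adjusted p = 0.0135), with log2FC of -0.81 and -1.06 without the 7 libraries. Cyp2a5 was not called with the covariate (log2FC -0.76, adjusted p = 0.0649). How reads were divided between Cyp2a5 and its near copies was not examined. Among 26 bile acid genes, 2 were higher and 1 lower. Slc10a2, the sodium-dependent bile acid carrier, lay at 6.95, 12.2 and 22.2 and at 2.14, 6.21 and 9.31 (log2FC -0.96, adjusted p = 0.000365) and was called in all 3 fits.

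**Figure D4:**
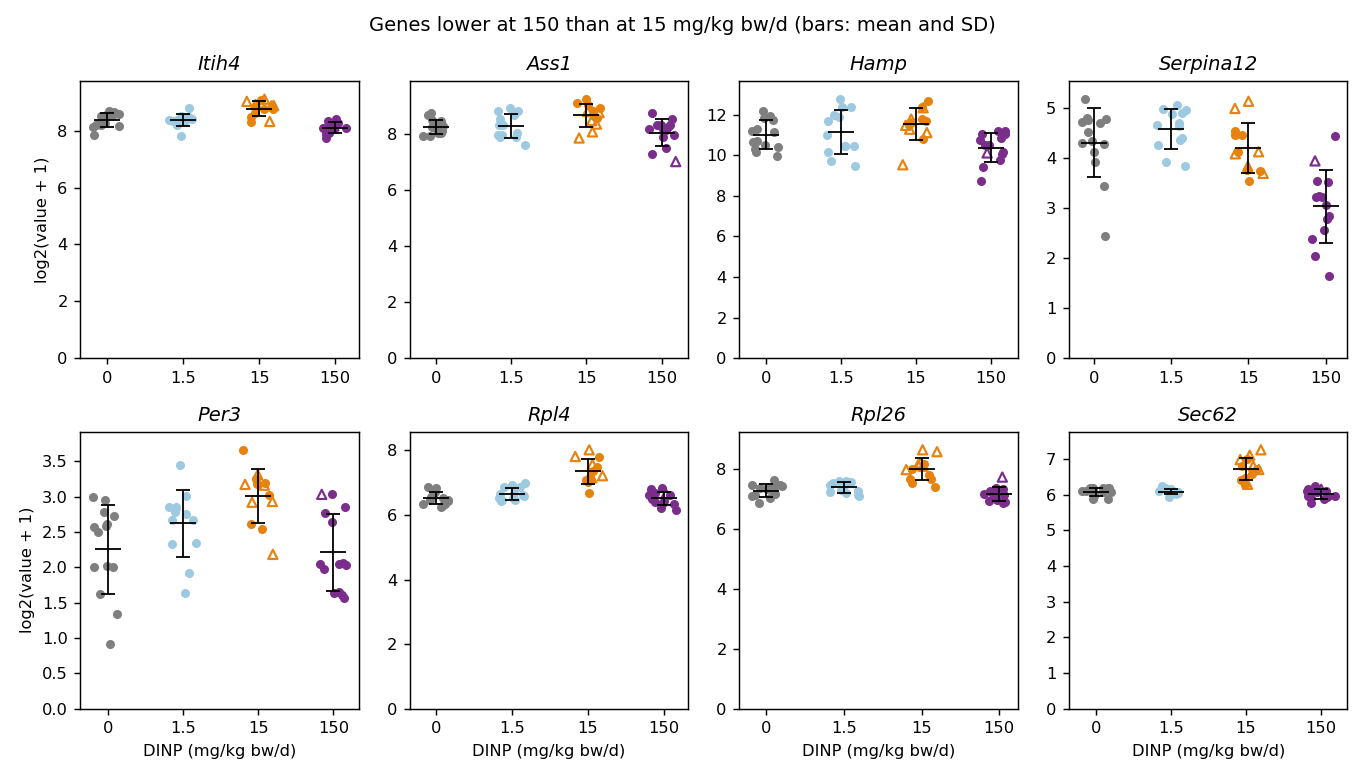
log2(value + 1) of 8 genes called lower at 150 mg/kg bw/d, drawn for each mouse of the 4 groups with mean and SD, open triangles being the 7 libraries that stood apart. Sec62 does not overlap between 15 and 150 mg/kg bw/d, and Serpina12 has its lowest median, 7.79, at 150 mg/kg bw/d.

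Lists of protein synthesis and of the respiratory chain lost most of their calls without the 7 libraries. So did the genes called lower as a whole, of which 80 of 335 were called again. The 7 libraries had the highest ribosomal protein means, and 6 of them were at 15 mg/kg bw/d. Leaving them out therefore lowers the difference in ribosomal protein genes by that choice itself. Of 85 cytosolic ribosomal protein genes, 25 were called lower at 150 mg/kg bw/d and none higher, with 72 of 85 below 0 and a median log2FC of -0.33. Without the 7 libraries 3 were called and the median was -0.09. With the ribosomal mean as covariate 1 was called, a fit in which these genes are on both sides. Rpl4 and Rpl26, of the large subunit, were, with Rpl13a, the 3 that were called without the 7 libraries: Rpl4 had medians of 147 and 92.5 (log2FC -0.84, adjusted p = 3.57e-05) and Rpl26 of 253 and 141 (log2FC -0.83, adjusted p = 4.48e-05), with log2FC of -0.73 and -0.63 without the 7 libraries. Rpl26 missed the fold threshold with the covariate (log2FC -0.5), while Rpl4 was called in all 3 fits, and its control median of 89.4 was close to that at 150 mg/kg bw/d.

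Of 39 subunits of complex I, 7 were lower with all libraries and 1 without the 7, and the median log2FC went from -0.23 to -0.02. The one that held was Ndufa4, now placed with cytochrome oxidase, with medians of 847 and 452 (log2FC -0.86, adjusted p = 0.00014; -0.61 without the 7 libraries). Of 18 ATP synthase subunits 1, Atp5pf, was lower (log2FC -1, adjusted p = 0.0022) and none was called without the 7 libraries. Of 79 mitochondrial ribosomal proteins 6 were lower, and none was lower without the 7. Pin4, a parvulin-type isomerase found in ribosomal precursors (chrX:102119447-102127669), had the largest decrease among called genes with a proper name and a mean of at least 10 in the higher group. It lay at 23.4, 38.7 and 86.2 at 15 and at 11.4, 17.3 and 26.7 at 150 mg/kg bw/d (log2FC -1.23, SE 0.18, adjusted p = 7.61e-05), and kept its call in all 3 fits (log2FC -0.88 without the 7 libraries). Its control median was 15.7. Gadd45a, a stress-induced gene, was also low at the higher dose (medians 12.1 and 5.08, log2FC -1.03, adjusted p = 0.00154), and was called without the 7 libraries (log2FC -0.99) but not with the covariate (log2FC -0.7, adjusted p = 0.0666).

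**Figure D5:**
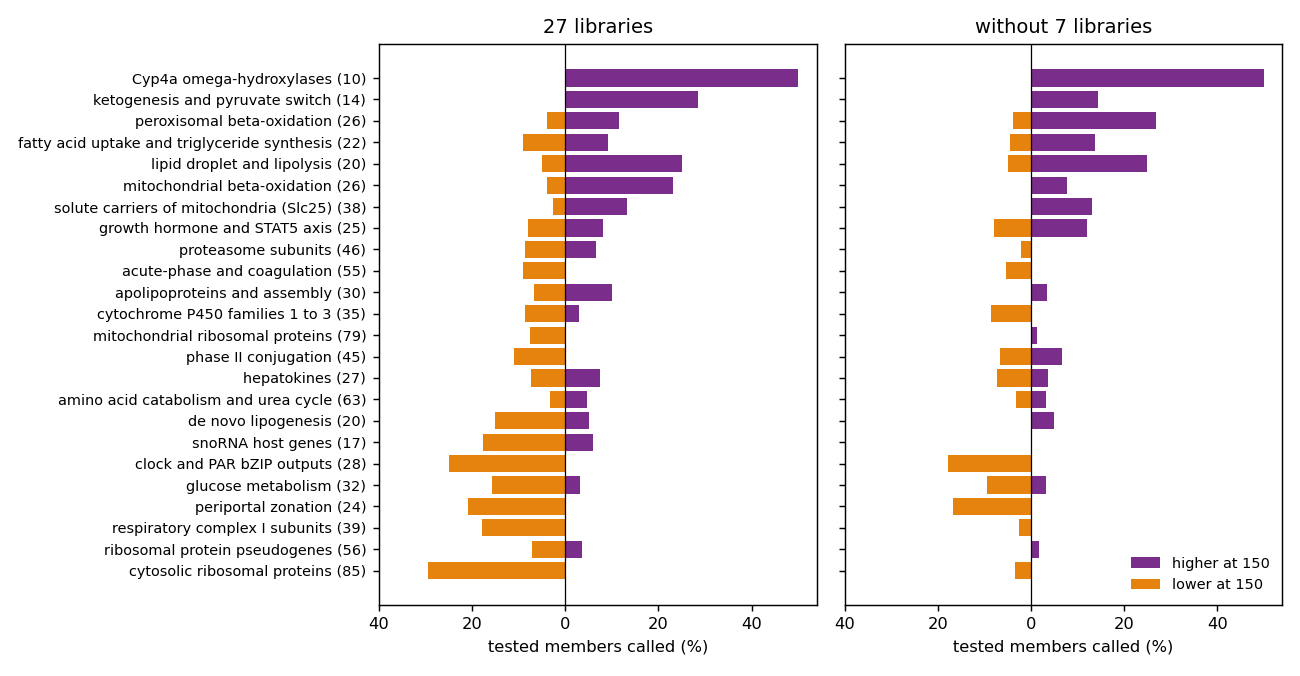
Share of the tested members of each gene list called higher (purple, right) or lower (orange, left) at 150 mg/kg bw/d, in percent, with all 27 libraries (left panel) and without the 7 that stood apart (right panel). The 24 lists with at least 4 calls, unnamed gene models left out, are shown with their number of tested genes in brackets, ordered by median log2FC. The bar of cytosolic ribosomal proteins shrinks from 25 of 85 genes to 3 and that of the Cyp4a genes stays at 5 of 10.

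Short non-coding RNAs supplied several of the largest increases. Of 58 snoRNA and scaRNA entries with such a symbol, 2 were called higher, near the share of 3.00% over all entries. Of the 58, 42 had a log2FC above 0, and the median was 0.51. Leaving out the 7 libraries, 1 was called and the median was 0.22, and with the covariate none was called. Snord68, which overlaps its host Rpl13, lay at 0, 31.8 and 334 and at 27.7, 115 and 314 (log2FC 2.39, SE 0.74, adjusted p = 0.0285). It lost its call when replicate 4 or 5 at 15 mg/kg bw/d was left out (adjusted p up to 0.0558), and the log2FC was 0.7 without the 7 libraries. Scarna17, a guide RNA of Cajal bodies, had medians of 36.8 and 115 (log2FC 1.72, adjusted p = 0.00571; 1.11 without the 7 libraries). Of 22 mitochondrial tRNAs, 4 were called higher and 21 had a log2FC above 0 (median 0.91), and without the 7 libraries 1 was called (median 0.1). TrnT, the threonine tRNA, was at 0 in 11 of 13 mice at 15 and in 3 of 14 at 150 mg/kg bw/d (log2FC 3.1, SE 0.74, adjusted p = 0.00537), and was not called without the 7 libraries (adjusted p = 0.171). Such RNAs lack the long poly(A) tail from which these libraries are primed, and what their values stand for was not tested.

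The largest log2FC of all entries belonged to Gm20708, a gene model that overlaps Afmid and Syngr2 on the same strand (chr11:117809668-117839904). It was at 0 in 10 of 13 mice at 15 mg/kg bw/d and at 14.3, 26 and 50.1 at 150 mg/kg bw/d (log2FC 3.8, SE 0.46, adjusted p = 6.83e-06; 3.51 without the 7 libraries), with a control median of 14.8. By GENCODE type, 99 snoRNA and 6 scaRNA entries were tested, of which 3 and 1 were called higher, against 3.00% over all entries. They include Gm23969, inside Rpl7a, and Gm24067, inside Ppan, which had log2FC of 3.19 and 2.44, and neither was called without the 7 libraries (adjusted p = 0.12 and 0.363). Gm24067 lost its call also when replicate 5 or 9 at 15 mg/kg bw/d was left out (adjusted p up to 0.0528). The decreases of Gm56450 (log2FC -1.86), Fdx2 (log2FC -1.5) and the pseudogene Rps18-ps6 (log2FC -1.19) were also not called without the 7 libraries (adjusted p = 0.105, 0.116 and 0.332). Fdx2, with means of 3.64 and 0.22, passed the minimum mean only through the lower dose. Reads of overlapping genes and of pseudogenes cannot be told from those of their partners here.

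The means of the control and 1.5 mg/kg bw/d groups were set beside those of the doses, as a description. Over all 341 genes called higher, the control mean lay nearer to 15 mg/kg bw/d for 141 and nearer to 150 mg/kg bw/d for 200, and over the 335 called lower for 68 and 267. The order turned for higher genes in a smaller set. Over the 105 genes called higher with and without the 7 libraries, with both dose means taken without them, the control mean lay nearer to 15 for 65 genes and nearer to 150 mg/kg bw/d for 40. For 1.5 mg/kg bw/d these were 67 and 38. Over the 80 genes called lower in both fits, the control mean lay nearer to 15 for 26 and nearer to 150 mg/kg bw/d for 54, and the mean at 1.5 mg/kg bw/d for 30 and 50. For the genes lost without the 7 libraries, both dose means were taken over all 27 libraries. Kept and lost genes therefore differ also in the libraries behind the dose means. Among the 255 genes called lower that were lost without the 7 libraries, the control mean lay nearer to 150 mg/kg bw/d for 207, and among the 236 higher genes lost it did so for 160. These are counts over genes of the same mice, which are not independent, and they carry no test of either dose against control.

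The genes called in each direction also differed in length. The longest GENCODE M21 transcript had a median of 3060 bases over the tested genes with a match (97.8%), of 2795 bases over the genes called higher and of 1991 bases over those called lower. Over the genes called lower both with and without the 7 libraries the median was 2657 bases, and over those lost without them 1881 bases. The median GC content was 49% over all, 51.2% for higher and 47.9% for lower genes. The part of length in the calls was not tested. Of the 341 genes called higher 271 were protein-coding, and of the 335 called lower 296.

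The libraries carried the markers of liver: the 10 hepatocyte markers summed to 31312 to 54812 at 15 and 36807 to 49000 at 150 mg/kg bw/d, and none was called. No marker of sinusoidal endothelial cells (8 tested), Kupffer cells (11), cholangiocytes (4), T and NK cells (2), B cells (2), neutrophils (2), erythroid cells (5), pancreas (1) or muscle (2) was called. With so few tested, a count of none is near the shares of 3.00% higher and 2.94% lower over all entries. Of 3 tested adipocyte markers 1, Cfd, was called higher. The stellate cell marker Lum was called lower (means of 2.62 and 0.883, so that it passed the minimum mean through the lower dose; log2FC -0.78, adjusted p = 0.022) but not without the 7 libraries (log2FC -0.46), and so was Cd9, 1 of 3 tested markers of lipid-associated macrophages (log2FC -0.62, adjusted p = 0.02; -0.33 without the 7 libraries). For most cell types the summed markers reached higher among the 6 libraries at 15 mg/kg bw/d that stood apart than among the other 7. The highest sums were 256 against 33.3 for cholangiocytes, 290 against 30.4 for lipid-associated macrophages and 385 against 178 for stellate cells. They were also higher for Kupffer cells (417 against 317), T and NK cells (18.6 against 7.14), neutrophils (38.1 against 15.3) and adipocytes (99.3 against 39). The same held for hepatocytes (54812 against 48562) and sinusoidal endothelial cells (164 against 157). They went the other way for muscle (9.95 against 268), pancreas (34.3 against 75.5), B cells (67.4 against 86.6) and erythroid cells (1590 against 1806). Spp1 counts in both the cholangiocyte and the lipid-associated macrophage sum, and each highest sum is that of a single library. The part of these cells in the results was not tested. In bulk tissue, fewer cells of a type and less RNA per cell cannot be told apart. Against the 3.00% higher and 2.94% lower over all entries, other lists counted as follows with all libraries: none of 39 genes of the unfolded protein response, none of 27 of the vacuolar proton pump and cathepsins and none of 24 histone genes were called, and of 35 genes of extracellular matrix and fibrosis 1 was higher and 1 lower. Of 43 genes of interferon response and antigen presentation 3 were lower with all libraries and none without the 7. Of 28 genes of cholesterol synthesis 1 was higher, of 28 insulin and glucocorticoid response genes 2 were higher, and of 25 genes of the growth hormone axis 2 were higher and 2 lower. Of 30 apolipoprotein and assembly genes 3 were higher and 2 lower, and of 63 genes of amino acid catabolism and the urea cycle 3 were higher and 2 lower.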

How the data were processed

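The authors made 3′ mRNA libraries (QuantSeq) from 54 livers and, per the labels, processed the reads with STAR, RSEM and Salmon on GRCm38. The deposited values are a scaled signal. A library's values are all integer multiples of one unit (0.764 to 1.11), and those integers sum to 948342 to 980641, so the table was read as TPM rounded and then divided by size factors. The design allowed for counts or TPM, and the branch for TPM was followed. Sequencing depth is not kept in the table and is unknown, so no counting error of single values can be given.

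Groups were taken from the labels. The 13 libraries at 15 and 14 at 150 mg/kg bw/d were compared in R 4.3.3 with limma 3.58.1 (lmFit, eBayes with a trend) on log2(value + 1), a scale that understates the change of low genes, for the 11378 entries with a mean of at least 1. Each library is labelled as 1 mouse. Tests were 2-sided, with Benjamini-Hochberg adjustment over all entries, and calls needed an adjusted p under 0.05 and a log2FC beyond 0.5. On simulated data with 200 genes shifted by 1 on the log2 scale, 178 were recovered and 5 unchanged genes were called. The simulated noise was independent between genes and had the same SD in both groups. It therefore held no set of libraries like the 6 that stood apart at 15 mg/kg bw/d. The shift was also larger than the median change of called genes, 0.63, so these counts give no error rate for the real data.

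Genes named are the 10 largest increases and 10 largest decreases among called genes with a mean of at least 10 and a proper name, the 5 largest of each among all called entries, called members of lists with the lowest adjusted p, called genes whose groups did not overlap, and 8 genes fixed by name; others are said to be named after their values were seen. The members and the 54 gene lists were chosen with earlier results of these data known. List genes were matched through RefSeq synonyms, positions come from GENCODE M21 on GRCm38 and promoters from RefSeq.

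The fit was repeated with other pseudocounts (0.1 and 5), other filters (none, or a minimum mean of 5), equal sums, quantile normalization, all 4 groups, array weights, robust moderation, the replicate number as block, no fold threshold, a Wilcoxon test, and each library left out in turn. Fits without the 7 libraries that stood apart and with the ribosomal protein mean as covariate were chosen later, with the data already seen. The authors' own tests were not used here. Some genes that the rule would name are not reported here.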

Additional observations from a re-analysis of the deposited data

How the results depend on the processing

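The counts of 341 genes called higher and 335 lower moved by over 1.5 times under few settings: 169 and 173 with a pseudocount of 5, 846 and 844 with no fold threshold, 174 and 148 without the 7 libraries that stood apart, 121 and 100 with the ribosomal covariate, and, for lower genes, 217 with the Wilcoxon test. Leaving out 1 library gave 258 to 438 higher and 273 to 408 lower. The share of the first principal component between the doses was 15.9 to 28.6% with 1 library left out. The replicate block gave 280 higher and 297 lower, of which 268 and 276 were called without it. Same-numbered libraries did not deviate together (mean r = -0.0496 over 13 pairs, none above 0.1), so the numbers were taken not to pair the mice. Of 83 genes named with values, 21 lost their call without the 7 libraries, 32 with the covariate, 9 with the Wilcoxon test, 9 with a pseudocount of 5 and at most 5 under any other setting.

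Only Aldh9a1 and Cyp3a11, neither called, changed sign. The log2FC of Aldh9a1 was -0.04 with equal sums, without the 7 libraries and with the covariate, -0.02 with array weights, -0.01 with the block and -0.03 to 0.02 with 1 library left out. That of Cyp3a11 was 0.15 with array weights, 0.4 without the 7 libraries, 0.49 with the covariate and -0.14 to 0.07 with 1 library left out. The causes were not tested. Depth is unknown, so counting error cannot be separated from the spread between mice.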
